A study of Homo sapiens with 6 samples.

Results

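DLEU2, a long non-coding RNA of chromosome band 13q14, was described here together with DLEU2L, DLEU1, TRIM13, KCNRG, SPRYD7 and KPNA3. Every probe set whose platform gene symbol names one of these 7 genes was taken, also where it names further genes, and each was kept separate. This gave 21 of the 54613 probe sets that are not Affymetrix controls. The locus was chosen because DLEU2 was among the largest falls of this same comparison, and the other genes were chosen as its neighbours or, for DLEU2L, as its copy. The values of the members under the 2 pressures are therefore a description and carry no test.

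The cells were HaCaT, human skin keratinocytes that became immortal spontaneously in culture, grown in DMEM with serum. In 3 cultures the cells were held for 12 h in a negative pressure incubator set to a gradient of 125 mmHg, and 3 control cultures spent 12 h at ambient pressure. Total RNA was hybridised to 1 Affymetrix array per culture. The titles call the cultures biological replicates 1 to 3, all groups share the 1 cell line, and p-values measure the spread between these cultures. Values are RMA values on the log2 scale, so a difference of 1 is a 2-fold change, and each difference is negative minus ambient pressure.

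DLEU2 is the host transcript of the microRNAs miR-15a and miR-16-1, whose hairpins lie within it, and the region is a classic site of deletion in chronic lymphocytic leukaemia. MicroRNAs of the miR-15/16 family share a seed and repress messenger RNAs of cyclins, other cell cycle genes and BCL2. In RefSeq the locus is crowded. TRIM13 and KCNRG lie inside the span of DLEU2 and overlap each other, DLEU1 overlaps the DLEU2 span on the opposite strand, and SPRYD7 and KPNA3 follow as neighbours outside it. DLEU2L is annotated as a non-coding pseudogene on chromosome 1. Overlapping transcripts matter for the values below, because probe sequences and their strands were not used here and signal of overlapping or copied transcripts cannot be told apart.

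The 5p arms of the mature microRNAs encoded inside DLEU2 are shown, without their 3p arms, because they tie the host transcript to its known role, and the related microRNAs of other loci because they carry the same or a similar seed. Sequences are from RefSeq (GRCh38.p14), 5′ to 3′, with the seed, bases 2 to 8, in capitals. The DLEU2 span holds miR-15a at chr13:50049167-50049188 (minus strand), miR-16 at chr13:50049027-50049048 (minus strand) and miR-3613 at chr13:49996465-49996486 (minus strand).
miR-15a-5p: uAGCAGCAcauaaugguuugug
miR-16-5p: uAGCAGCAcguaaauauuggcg
miR-3613-5p: uGUUGUACuuuuuuuuuuguuc
miR-15b-5p: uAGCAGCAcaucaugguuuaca
miR-195-5p: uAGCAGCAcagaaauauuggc
miR-497-5p: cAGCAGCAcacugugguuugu
miR-424-5p: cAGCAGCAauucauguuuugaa
miR-503-5p: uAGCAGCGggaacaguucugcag
The seed AGCAGCA is shared by miR-15a, miR-16, miR-15b, miR-195, miR-497 and miR-424, while miR-503 has AGCAGCG and miR-3613 has the unrelated GUUGUAC. The identical mature miR-16-5p is also encoded on chromosome 3 beside miR-15b. No mature microRNA was measured here: the probe sets that name MIR15A also name DLEU2.

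The arrays were close to each other. Pearson's r, taken across probe sets that are no independent replicates, was 0.996 within each group between replicates 1 and 2, and from 0.989 to 0.991 in pairs that included replicate 3. As a check of the cell type, 7 of 10 listed keratinocyte markers were measured. All 7 lay above the median probe set mean of 3.84, with a median level of 10.55. Their mean over the list ran from 10.56 to 10.61 on the negative pressure arrays and from 10.32 to 10.34 on the ambient arrays. The medians of the fibroblast, melanocyte, endothelial and leukocyte marker lists were 3.49, 3.83, 4.36 and 4.03. In these lists 2 of 6, 1 of 3, 3 of 4 and 2 of 4 measured markers lay above the median probe set mean. CDH5, an endothelial cadherin gene, was the only one of these markers past the threshold (-0.80, limma adjusted p = 0.0492), named after its value was seen. The ACTB control probe sets, which report RNA degradation, gave a 3′ signal above the 5′ signal by 0.69 ± 0.24 under negative pressure and 0.54 ± 0.25 at ambient pressure (SD, n = 3 each). For GAPDH the same measure was 0.10 ± 0.06 under negative pressure and 0.18 ± 0.03 at ambient pressure. The part of marker levels and RNA quality in the values below was not tested.

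DLEU2 was lower under negative pressure in both of its well-lit probe sets. Probe set 216870_x_at, the brightest that names DLEU2 alone, read 5.07, 4.73 and 4.86 on the negative pressure arrays, against 6.72, 6.55 and 6.31 on the ambient arrays. All 3 negative pressure arrays were low and the groups stood 1.24 apart. The means were 4.89 ± 0.17 and 6.53 ± 0.20 (SD, n = 3 each), a difference of -1.64 ± 0.15 (SE of the limma fit), or 3.12-fold. Its difference ranked 6 among the falls of all 54613 probe sets.

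Probe set 215629_s_at names MIR15A, DLEU2L and DLEU2 together. It read 4.34, 4.38 and 3.75 on the negative pressure arrays, against 6.36, 6.18 and 5.62 on the ambient arrays. Replicate 3 was the lowest array of each group, and the groups were again 1.24 apart. The means were 4.16 ± 0.36 and 6.05 ± 0.38 (SD, n = 3 each), a difference of -1.90 ± 0.23 (SE), or 3.73-fold, which ranked 2 among all falls. This set cannot tell the 13q14 transcript from its chromosome 1 copy, and no other probe set names DLEU2L, so no separate value exists for DLEU2L. In the Affymetrix naming scheme the suffix s_at marks probes that match several transcripts and x_at marks probes that may bind unrelated ones, so neither bright set is free of this limit.

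**Figure D1:**
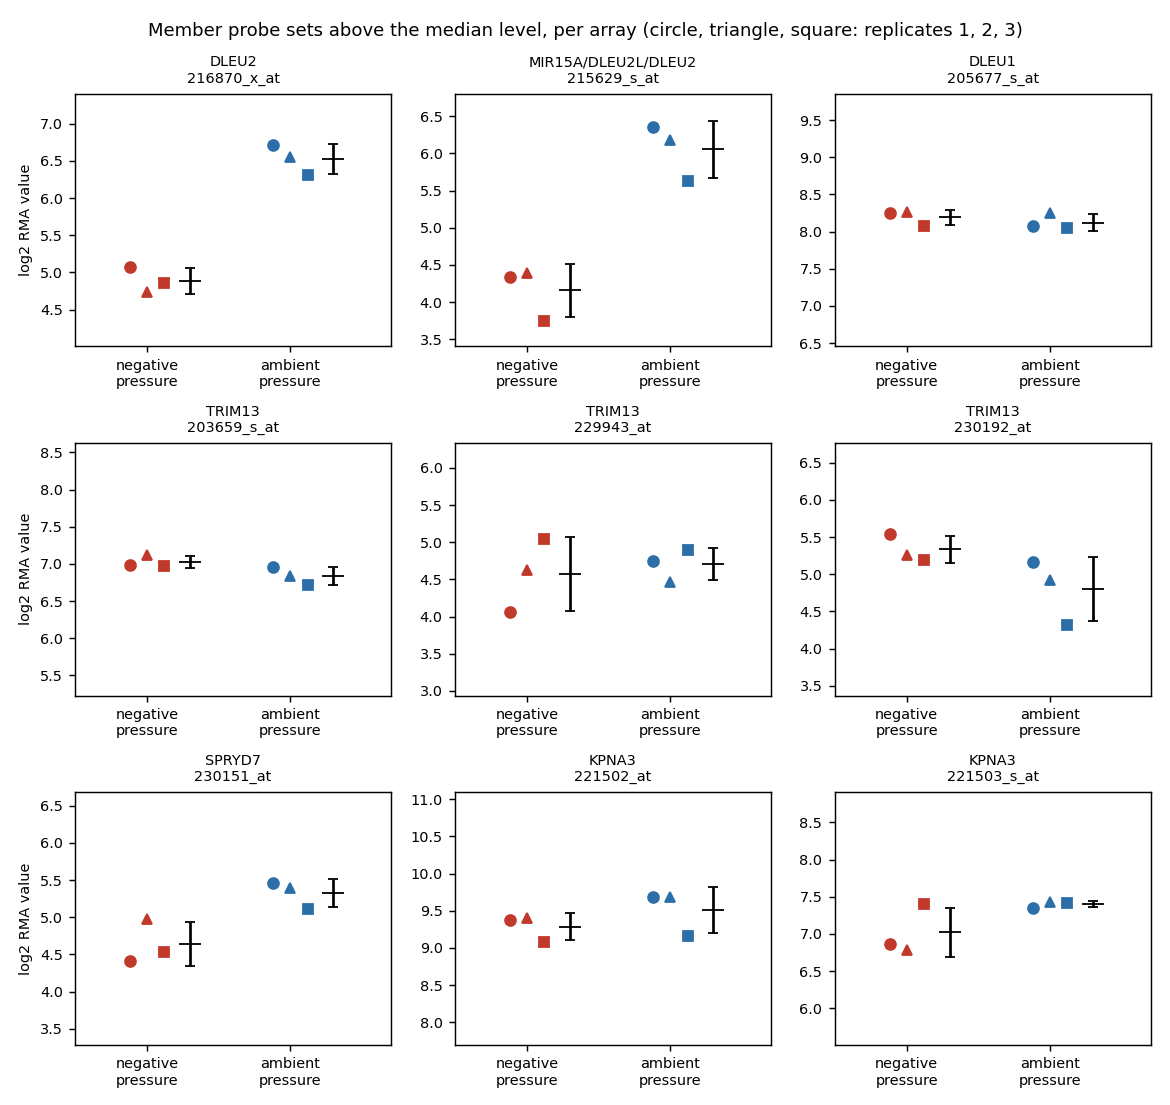
Values of the 9 member probe sets whose mean lies above the median probe set mean, on the log2 RMA scale, with negative pressure arrays in red at the left and ambient arrays in blue at the right. Each panel spans the same height, symbols mark replicates 1 to 3, and the black bar gives mean and SD. The groups stand 1.24 apart for both DLEU2 panels and lie closer or overlap in the other panels.

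Compared by replicate number, the fall was of similar size each time. For 216870_x_at the differences were -1.64, -1.82 and -1.46 for replicates 1, 2 and 3, and for 215629_s_at they were -2.02, -1.80 and -1.88. All 6 of these differences lay between -2.02 and -1.46, also for replicate 3, which was the lowest array of its group in 215629_s_at under both pressures.

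The other 8 probe sets that name DLEU2 were dim, with means over the 6 arrays from 1.49 to 3.74, all below the median probe set. Their differences ran from -0.44 to 0.09, and 5 of the 8 were below 0. Probe set 1556821_x_at, the brightest of them, read 3.20, 3.57 and 3.79 under negative pressure, against 3.98, 3.98 and 3.94 at ambient pressure. The ambient arrays were nearly equal and all above the negative pressure arrays, with a difference of -0.44 ± 0.16 (SE). Probe set 1556820_a_at read 2.24, 2.18 and 1.98 under negative pressure, against 2.57, 2.55 and 2.25 at ambient pressure, a difference of -0.32 ± 0.14 with a gap of only 0.01 between the groups.

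Not every probe set of DLEU2 moved this way. Probe set 216856_s_at, which the platform lists under the same transcript accession as 216870_x_at, read 2.08, 2.38 and 2.52 under negative pressure, against 2.26, 2.44 and 2.21 at ambient pressure. The groups overlapped fully, at a difference of 0.02 ± 0.14 (SE). The sets 1564443_at (0.07 ± 0.12), 242854_x_at (-0.13 ± 0.12) and 1569600_at (-0.19 ± 0.13) overlapped as well. So did both sets that name MIR15A and DLEU2 without DLEU2L. Of these, 239936_at read 2.16, 2.10 and 2.34 under negative pressure, against 1.90, 2.05 and 2.38 at ambient pressure (0.09 ± 0.15), and 1563229_at stood at -0.12 ± 0.14. Such low signals limit what these sets can show.

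**Figure D2:**
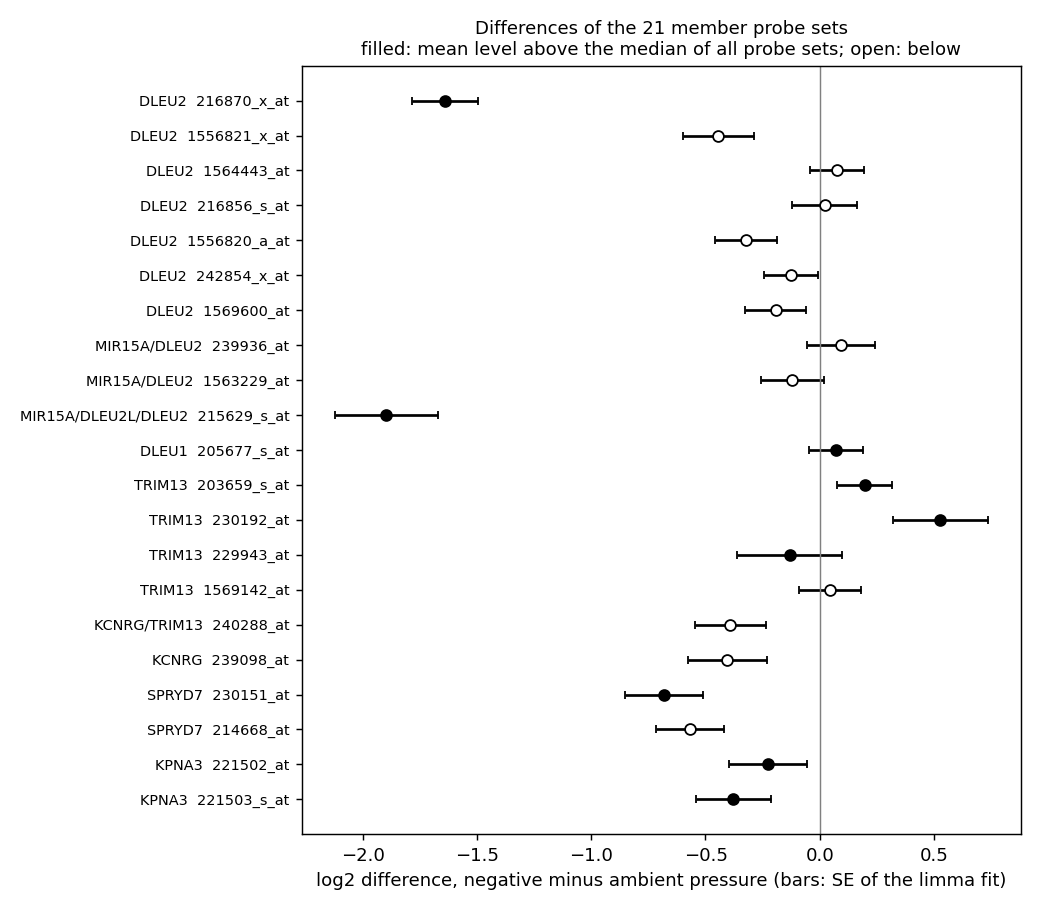
Log2 difference, negative minus ambient pressure, of each of the 21 member probe sets, with bars for the SE of the limma fit (3 arrays per group). Filled points have a mean above the median of all probe sets and open points below it. Both filled points of DLEU2 lie at -1.64 and -1.90, apart from all other members, which lie between -0.68 and 0.53.

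Windows around annotated gene starts are shown because DLEU2 starts at more than 1 place and shares an area of start with DLEU1. Each is the RefSeq window (GRCh38.p14) of 250 bases before to 50 bases after a start, 5′ to 3′ on the gene's own strand. Capitals mark matches, on either strand, to the motifs searched: the E-box CACGTG, the box known as CCAAT after its letters, the TATA box as TATAAA, the cyclic AMP response element TGACGTCA and the AP-1 motif TGANTCA, whose matches do not overlap in these windows. The outer DLEU2 window lies at chr13:50125492-50125791 (minus strand) and the inner at chr13:50081992-50082291 (minus strand).
DLEU2 outer start: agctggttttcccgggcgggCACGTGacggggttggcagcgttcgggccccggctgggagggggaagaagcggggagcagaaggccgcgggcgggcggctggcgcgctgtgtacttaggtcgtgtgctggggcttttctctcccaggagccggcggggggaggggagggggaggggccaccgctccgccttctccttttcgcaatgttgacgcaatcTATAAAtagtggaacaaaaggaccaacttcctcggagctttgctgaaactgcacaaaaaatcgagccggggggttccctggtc
DLEU2 inner start: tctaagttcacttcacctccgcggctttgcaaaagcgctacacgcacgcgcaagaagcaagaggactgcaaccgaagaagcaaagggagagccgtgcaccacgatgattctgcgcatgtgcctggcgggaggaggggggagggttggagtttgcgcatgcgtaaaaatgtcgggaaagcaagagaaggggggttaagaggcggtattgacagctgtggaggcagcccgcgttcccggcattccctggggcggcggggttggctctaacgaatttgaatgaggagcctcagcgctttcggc
The outer window holds an E-box at base 21 and a TATAAA at base 218. Of all 35116 promoter windows, 7.26% hold CACGTG and 11.5% hold TATAAA. The inner window holds none of the motifs searched. It shares 227 bases with the window of DLEU1 (chr13:50081919-50082218, plus strand), read from the other strand, and the DLEU1 and DLEU2 starts lie 128 bases apart. The GC content is 64.0% in the outer and 58.7% in the inner window, against a median of 58.7% over all windows. Which start the signals of the probe sets come from was not tested.

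DLEU1, the long non-coding RNA that starts head to head with the inner DLEU2 start, differed by less than the spread between replicates. Its single probe set 205677_s_at read 8.24, 8.26 and 8.07 under negative pressure, against 8.07, 8.25 and 8.04 at ambient pressure. The groups overlapped almost wholly, with means of 8.19 ± 0.10 and 8.12 ± 0.11 (SD, n = 3 each) and a difference of 0.07 ± 0.12 (SE). This set was among the brightest 10% of probe sets, at the percentile 91.5.

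TRIM13, a RING-type ubiquitin ligase of the endoplasmic reticulum membrane, lies inside the DLEU2 span, yet 2 of its 3 sets above the median level were higher under negative pressure. Probe set 203659_s_at read 6.99, 7.13 and 6.97 under negative pressure, against 6.95, 6.83 and 6.71 at ambient pressure. Negative pressure was the higher group by a gap of 0.02, with a difference of 0.20 ± 0.12 (SE). Probe set 230192_at read 5.54, 5.26 and 5.20 under negative pressure, against 5.16, 4.93 and 4.32 at ambient pressure, a difference of 0.53 ± 0.21. Ambient replicate 3 was the lowest array here, and without it the difference was 0.29. Probe set 229943_at overlapped widely (4.06, 4.62 and 5.04 under negative pressure, against 4.75, 4.47 and 4.89 at ambient pressure), and the dim 1569142_at stood at 0.05 ± 0.14.

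KCNRG, a soluble regulator that restrains Kv1 potassium channels, overlaps TRIM13 and was dim. Its own probe set 239098_at read 2.68, 2.78 and 2.17 under negative pressure, against 2.78, 3.03 and 3.04 at ambient pressure. The groups overlapped narrowly, and the difference of -0.41 ± 0.17 (SE) was -0.22 without negative pressure replicate 3. The set shared by KCNRG and TRIM13, 240288_at, read 1.25, 1.67 and 1.43 under negative pressure, against 1.67, 1.76 and 2.09 at ambient pressure, so that the highest negative pressure array met the lowest ambient array. Its difference was -0.39 ± 0.16.

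SPRYD7, which encodes a protein with a SPRY domain, was lower in both of its probe sets. Probe set 230151_at read 4.42, 4.98 and 4.54 under negative pressure, against 5.46, 5.40 and 5.11 at ambient pressure. All negative pressure arrays were below all ambient arrays, by a gap of 0.14, with means of 4.64 ± 0.30 and 5.33 ± 0.19 (SD, n = 3 each). The difference of -0.68 ± 0.17 (SE), or 1.60-fold, was the largest among members that do not name DLEU2. The dim 214668_at read 2.61, 2.60 and 2.71 under negative pressure, against 3.44, 2.91 and 3.26 at ambient pressure, a difference of -0.57 ± 0.15.

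The SPRYD7 window (chr13:49936291-49936590, minus strand) is shown because the gene was, beside DLEU2, the member with the largest differences in the same direction.
SPRYD7 start: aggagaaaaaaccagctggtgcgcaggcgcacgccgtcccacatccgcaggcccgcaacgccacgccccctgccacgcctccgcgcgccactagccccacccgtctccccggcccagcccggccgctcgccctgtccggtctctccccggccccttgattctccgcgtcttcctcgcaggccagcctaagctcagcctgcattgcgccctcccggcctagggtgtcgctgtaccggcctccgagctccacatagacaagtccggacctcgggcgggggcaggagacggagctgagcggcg
It holds none of the motifs searched and is 71.7% GC. The window of KPNA3 (chr13:49792633-49792932, minus strand) holds an E-box at base 185, and that of KCNRG a CCAAT on the other strand. A match or its absence is a description of these letters only.

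KPNA3, an importin alpha that carries proteins with a nuclear localisation signal into the nucleus, was lower in the means of both sets, with overlap. Probe set 221502_at read 9.38, 9.40 and 9.08 under negative pressure, against 9.68, 9.69 and 9.16 at ambient pressure. Replicate 3 was the lowest of each group and made the groups overlap, at a difference of -0.23 ± 0.17 (SE). Leaving out ambient replicate 3 made it -0.40, and leaving out negative pressure replicate 3 made it -0.12. Probe set 221503_s_at read 6.87, 6.79 and 7.40 under negative pressure, against 7.35, 7.42 and 7.42 at ambient pressure. Here negative pressure replicate 3 alone stood with the ambient arrays, and the difference of -0.38 ± 0.17 was -0.57 without it.

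Over the 21 member probe sets, 14 differences were below 0 and 7 above, with a median of -0.19, against 0.01 over all probe sets. The groups did not overlap with negative pressure lower in 6 members, beside 6.56% of all probe sets, and with negative pressure higher in 2 members, beside 8.44%. In limma, 2 members (216870_x_at and 215629_s_at) passed an adjusted p of 0.05, beside 0.480% of all probe sets (262 of 54613). With the replicate number as a block, 3 members passed, SPRYD7 230151_at being the additional set, beside 2.27% of all. Because the locus was chosen on this contrast, nothing is read from these counts. The count of 2 was 0 when ambient replicate 1, ambient replicate 2 or negative pressure replicate 2 was left out, and 1 when negative pressure replicate 1 was. In the same runs only 1 to 8 of all probe sets passed.

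The genes around the members on 13q14 were compared to see whether the locus as a whole was lower. Of 21 further neighbours 19 were measured, 11 with a difference above 0 and 8 below, with a median of 0.04. In limma 0 passed in either direction, and 4 had an unadjusted p under 0.05. The share of all probe sets under that unadjusted p is not given here. Nothing is therefore read from such counts, in this list or in those below. RCBTB2, an RCC1 and BTB domain gene, stood at 0.77 ± 0.18 (SE; limma adjusted p = 0.144) and passed with the replicate block (adjusted p = 0.0219). It read 5.60 ± 0.36 under negative pressure and 4.84 ± 0.18 at ambient pressure (SD, n = 3 each). CDADC1, a gene of the cytidine deaminase family, stood at -0.38 ± 0.14 (limma adjusted p = 0.361). Its other sets went both ways, with 223527_s_at at -0.31, 233564_s_at at -0.12 and the dim 221015_s_at at 0.24. The 401 measured genes of chromosome 13, a set chosen after values were seen, were each taken by the brightest probe set naming them alone. Past the threshold 1 was lower and 1 higher, with a median difference of -0.01. The 1 lower was DLEU2 and the 1 higher DNAJC3-DT (1.02 ± 0.14, SE), singled out after its value was seen. Other probe sets of these genes were not counted, so a fall seen only in a dimmer set is missed. Over all 19775 genes, taken the same way, 42 were lower and 85 higher.

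**Figure D3:**
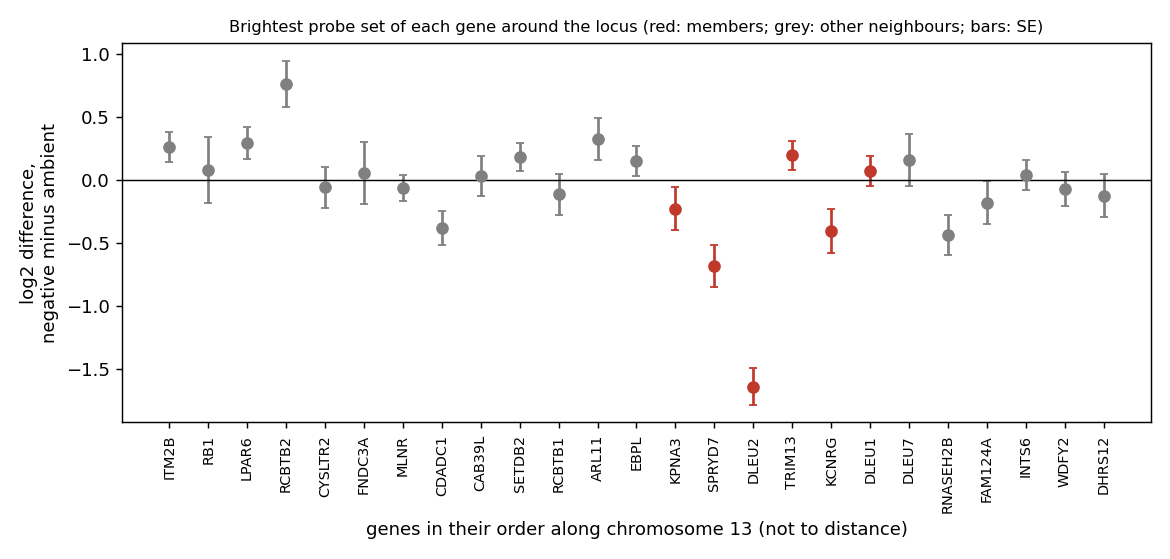
Log2 difference, negative minus ambient pressure, of the brightest probe set of each measured gene around the locus, in RefSeq order along chromosome 13, with bars for the SE of the limma fit. Members are red and other neighbours grey. DLEU2 stands at -1.64 between SPRYD7 at -0.68 and TRIM13 at 0.20, and the grey points lie between -0.43 and 0.77.

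Genes reported elsewhere as direct targets of miR-15a or miR-16 did not lean to either side as a group. Of 24 listed, 20 were measured by the brightest probe set naming them alone, 10 with a difference above 0 and 10 below, with a median of 0.02, against 0.01 over all probe sets. In limma 0 passed in either direction, and 2 had an unadjusted p under 0.05. These were JUN, a subunit of the AP-1 transcription factor, at -0.71 ± 0.18 (SE; limma adjusted p = 0.171, with the replicate block 0.0323) and MYB, a transcription factor gene, at 0.55 ± 0.14 (limma adjusted p = 0.176). MYB read 5.43 ± 0.26 under negative pressure and 4.87 ± 0.06 at ambient pressure (SD, n = 3 each). Another JUN probe set, 201466_s_at, singled out after its value was seen, fell by 1.13 on the log2 scale (limma adjusted p = 0.0492), and it was the only 1 of 67 probe sets of these genes past the threshold. JUN set 201465_s_at stood at -0.86 (limma adjusted p = 0.216) and passed with the replicate block (adjusted p = 0.0347).

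BCL2, the apoptosis inhibitor best known as a miR-15/16 target, stood at 0.11 ± 0.11 (SE; limma adjusted p = 0.853). Its brightest set read 4.82 ± 0.05 under negative pressure and 4.71 ± 0.03 at ambient pressure (SD, n = 3 each). Negative pressure was the higher group here by a gap of 0.05. The dim BCL2 set 207005_s_at was higher without overlap as well, at 0.27. The dim sets 203684_s_at and 203685_at overlapped, at -0.04 and -0.02. CCND1, which encodes cyclin D1, stood at -0.38 ± 0.21 (limma adjusted p = 0.630), with 9.71 ± 0.31 under negative pressure and 10.09 ± 0.34 at ambient pressure. This difference was -0.20 when negative pressure replicate 3 was left out, and -0.58 when ambient replicate 3 was. The dimmer CCND1 set 208711_s_at stood at -0.79 ± 0.41 (limma adjusted p = 0.602) and passed with the replicate block (adjusted p = 0.0253). Its differences were -1.08, -0.88 and -0.40 for replicates 1, 2 and 3, while the groups overlapped because replicate 3 was high under both pressures. A p that misses the threshold does not show that these genes were equal.

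SMC4, a condensin subunit gene whose introns carry miR-15b and miR-16-2, was the only measured host of a related cluster. It stood at 0.20 ± 0.19 (SE; limma adjusted p = 0.858), with 10.86 ± 0.37 under negative pressure and 10.66 ± 0.17 at ambient pressure (SD, n = 3 each). Its other probe sets stood at 0.41 ± 0.17 and -0.61 ± 0.24, so they went both ways. The level of miR-16 made from chromosome 3 was not measured.

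Of 11 measured genes that make microRNAs from host transcripts, 0 passed in limma and 3 had an unadjusted p under 0.05. DICER1, which cuts hairpin precursors, stood at -0.72 ± 0.29 (SE, limma adjusted p = 0.448). Its negative pressure replicate 1 (7.23) was far below replicates 2 and 3 (8.26 and 8.46). Another DICER1 set, 206061_s_at, stood at -0.81 ± 0.28 (adjusted p = 0.329), with negative pressure replicate 1 (5.76) again the lowest. Set 212888_at stood at -0.42 ± 0.25 (adjusted p = 0.679), and the dim sets at -0.38, -0.18 and 0.18. DDX5, a helicase of the nuclear processing complex, stood at -0.59 ± 0.21 (limma adjusted p = 0.375) and passed with the replicate block (adjusted p = 0.0360). The median of the list was -0.11.

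Among factors reported to act on the DLEU2 promoter, 0 of 5 measured passed in limma, and 0 had an unadjusted p under 0.05. MYC, reported to repress DLEU2, stood at 0.26 ± 0.17 (SE; limma adjusted p = 0.720), with 10.67 ± 0.25 under negative pressure and 10.41 ± 0.24 at ambient pressure (SD, n = 3 each). E2F1, a cell cycle transcription factor, stood at -0.17 ± 0.16 (limma adjusted p = 0.851).

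The importin relatives of KPNA3 had differences below 0 in all 6 measured genes by their brightest sets, with a median of -0.16, and 0 passed in limma, with 1 at an unadjusted p under 0.05. KPNA1 stood at -0.30 ± 0.13 (SE; limma adjusted p = 0.505) and KPNA5 at -0.20 ± 0.18 (adjusted p = 0.840). For all 6 the sign was the same in the 3 other normalizations, but it depends on the probe set. Other KPNA1 sets stood at -0.37, -0.23 and -0.22, while 202058_s_at was higher without overlap (0.22) and 213741_s_at stood at 0.14. For KPNB1, the importin beta partner, the brightest set stood at -0.08. Another 2 KPNB1 sets, singled out after their values were seen, rose by 0.81 (limma adjusted p = 0.0263) and 0.76 (adjusted p = 0.0340).

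Of 7 partners or substrates reported for TRIM13, SQSTM1, the cargo receptor p62 of selective autophagy, rose by 0.64 ± 0.11 (SE; limma adjusted p = 0.0498), and 6 did not pass. These 6 all had differences below 0. The median of the list was -0.14, and 2 of the 7 had an unadjusted p under 0.05. SQSTM1 read 10.10 ± 0.08 under negative pressure and 9.46 ± 0.03 at ambient pressure (SD, n = 3 each). This call is marginal: it was lost with repeated quantile normalization (adjusted p = 0.0549), median centring (0.0629) and cyclic loess (0.0535), and when any 1 array was left out (0.0593 to 0.232). Its next brightest set, 213112_s_at, singled out after its value was seen, rose by 1.02 (limma adjusted p = 0.0303). Its 3 dimmer sets overlapped between the groups and did not pass, at 0.11, 0.05 and -0.08. Of 4 measured Kv1 channel genes, the group KCNRG acts on, 0 passed in limma and 0 had an unadjusted p under 0.05, and all were dim. KCNA1 stood at 0.23 ± 0.14 (adjusted p = 0.703) and KCNA3 at -0.16 ± 0.15 (adjusted p = 0.844).

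**Figure D4:**
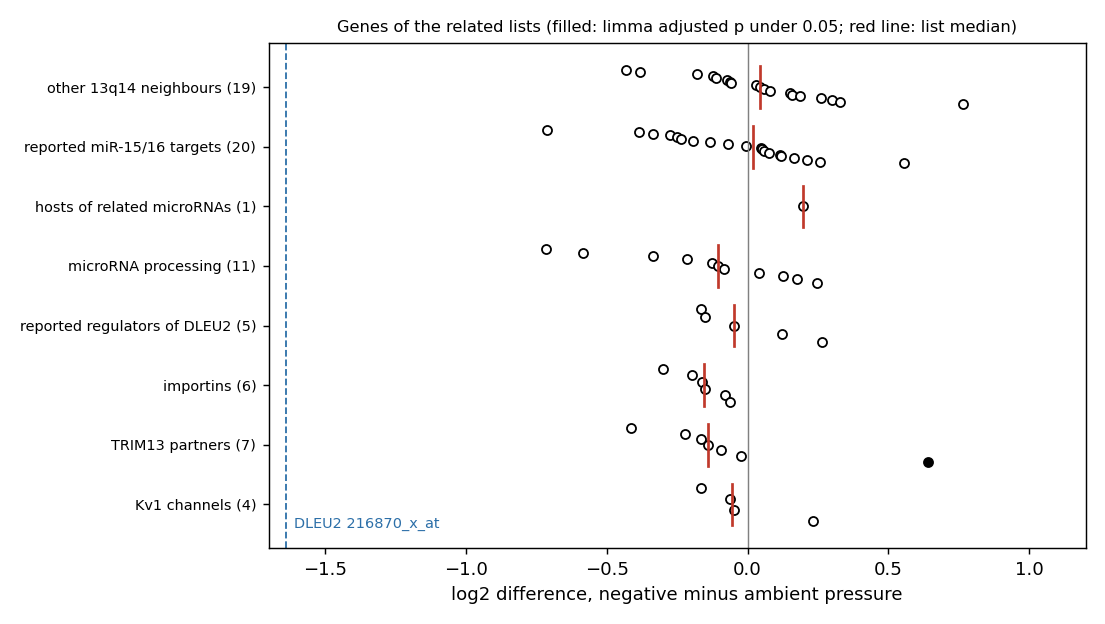
Log2 difference, negative minus ambient pressure, of each measured gene in the related lists, by its brightest probe set, with the number of genes in brackets and the list median as a red line. Filled points passed a limma adjusted p of 0.05. SQSTM1 at 0.64 is the only filled point, and every point lies to the right of the dashed line of DLEU2 216870_x_at at -1.64.

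The genes whose pattern was most like DLEU2 216870_x_at were ranked by Pearson's r over the 6 arrays, among 23442 probe sets of a single gene above the median level. Such an r mostly repeats the gap between the groups and is a description. The 5 closest were TFDP1, the dimerisation partner of E2F factors (r = 0.998), the copper importer gene SLC31A1 (0.993), RBIS, a ribosome biogenesis factor (0.993), DMAC2L (0.992) and IFT52, a subunit of intraflagellar transport (0.992). TFDP1 set 242939_at read 6.81, 6.63 and 6.61 under negative pressure, against 7.60, 7.52 and 7.41 at ambient pressure. Its difference was -0.82 ± 0.12 (SE), while the other and brighter TFDP1 sets stood at 0.08 ± 0.11 and 0.07 ± 0.11.

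The same split between probe sets was present in other genes of similar pattern. For RBIS, set 1555241_at stood at -1.05 ± 0.12 (SE), and 1555243_x_at at -0.72 ± 0.13 with no overlap of the groups, against -0.08 ± 0.15 for the brightest set 226165_at. For SLC31A1, set 235013_at stood at -0.33 ± 0.11, against 0.18 ± 0.11 for the brighter 203971_at and 0.02 ± 0.17 for the dimmer 236217_at. DMAC2L differed: besides 237400_at at -1.19 ± 0.14, its sets 213995_at and 239859_x_at stood at -1.16 ± 0.18 and -1.07 ± 0.21. Its sets 1554177_a_at, 206992_s_at and 238799_at were lower without overlap as well, at -0.76, -0.48 and -0.44, and the sets 206993_at and 244670_at overlapped, at 0.02 and 0.07. For IFT52, the brighter set 218709_s_at stood at -0.31 ± 0.11, and 233532_x_at at -0.13 ± 0.14 with overlap of the groups. The 215629_s_at set had an r of 0.970 with 216870_x_at.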

How the data were processed

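The authors deposited log2 values per probe set, which the submitters' processing notes ascribe to RMA in Affymetrix Expression Console 1.2. They ran from 0.890 to 13.4, with array medians of 3.81 to 3.89; array batches and scan dates are not given in the sources used. The 3 arrays per group limit the precision. Sample titles gave the groups and replicate numbers.

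Negative pressure was compared with ambient pressure in R 4.3.3 with limma 3.58.1 (lmFit, then eBayes, no trend, no block) over 54613 probe sets, with 62 Affymetrix controls left out, no filter on low values and Benjamini-Hochberg adjustment over all of them, at an adjusted p under 0.05. The fit was also run on simulated data with independent noise on each array, without the deviations shared between arrays that are described below. Nothing is read from that run here. Of the 54613 probe sets, 41091 name 1 gene in the platform annotation, 1801 name several and 11721 are unnamed here. List genes use the probe set of highest mean among those naming them alone.

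The members, lists and tests were chosen with earlier results of these data known. The rule for naming took every member probe set, up to 4 passing genes per list and direction or else the 2 of smallest p, always MYC, BCL2, CCND1 and SMC4, and the 5 genes most like DLEU2. Genes outside the rule are marked where they were named once their values were known. Further probe sets of named genes were also shown once values were known, and not all of these are marked.

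Replicate numbers recur in both groups. Across probe sets, deviations from the group means correlated at 0.22 for number 1, at 0.23 for number 2 and at 0.47 for number 3. As each exceeds 0.1, the numbers were treated as pairs in the blocked fit. This rests on the values and not on a stated shared day. Crossed numbers also exceeded 0.1: negative pressure replicate 1 with ambient replicate 2 (0.15), and negative pressure replicate 2 with ambient replicate 1 (0.36). The rule therefore cannot show that numbers 1 and 2 are pairs, and blocked values carry this limit. Blocked values stand where they change a call of a tested gene; genes chosen for their likeness to DLEU2 carry no test. Alternatives were the replicate block, 3 other normalizations, a filter on dim probe sets, trend and robust variance, array weights, 1 probe set per gene, each array left out, and both replicate 3 arrays left out.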

Additional observations from a re-analysis of the deposited data

How the results depend on the processing

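Over all probe sets, 262 passed, against 1242 with the replicate number as a block and 1516 with array weights. Without both replicate 3 arrays 600 passed, and 1 to 235 when 1 array was left out. The causes of these changes were not tested. Repeated quantile normalization, median centring, cyclic loess, the filter on dim probe sets, trend and robust variance and 1 probe set per gene kept the count within 1.5 times. Of the member probe sets, 2 passed, against 3 with the replicate block, 1 with 1 probe set per gene (the shared set is then not tested) and 0 to 2 when 1 array was left out. Across the alternatives DLEU2 216870_x_at ran from -1.75 to -1.55, past the threshold in 12 of 15, and 215629_s_at from -2.11 to -1.69, past it in 10 of 14. SPRYD7 230151_at ran from -0.85 to -0.57, past it in 2 of 15. The differences of the dim sets 1569142_at, 216856_s_at and 239936_at and of TRIM13 229943_at changed sign in some alternatives. The other 13q14 neighbours gave 1 call with the replicate block and 1 with array weights (0 in the fit reported), the reported miR-15/16 targets 1 and 1, and the microRNA processing genes 1 with the replicate block. The TRIM13 partners gave 0 calls in the 3 other normalizations and 0 whichever 1 array was left out, against 1. Beyond SPRYD7, RCBTB2, JUN and DDX5, the block changed no call of the genes named by the rule, taken by the brightest set of each list gene. Among their other sets it added CCND1 208711_s_at and JUN 201465_s_at.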
